A study of Mus musculus with 8 samples.

Results

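The Ifi200 (HIN-200) genes of the mouse were examined in progenitors of dendritic cells (DCs). The set proposed was Ifi205, Ifi203, Ifi204 and Aim2, and a member was counted where the array's annotation gives it a probe set of its own, a group of probes summarised to 1 signal and assigned to exactly 1 gene. This held for 3 of the 4 genes, with 1 probe set each (10360406 for Ifi205, 10360391 for Ifi203 and 10351867 for Aim2), out of 19938 genes with such a probe set. Ifi204 shares its probe set, 10360382, with Ifi211, so that signal is given as that of the pair and not as that of a member. The genes were chosen by their measured log2 signal over the 3 groups, Ifi205 because its increase is among the largest in the data, and the differences of the members between groups are therefore described without a test.

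All cells came from the bone marrow of mice heterozygous for a Zeb2-GFP fusion reporter, in which green fluorescence follows the Zeb2 protein. Common DC progenitors (CDPs), from which both classical and plasmacytoid DCs develop, were sorted as Zeb2hi (3 arrays) and Zeb2low (3 arrays) fractions, and pre-CD8 DCs, committed precursors of the CD8+ classical DC (cDC1), were measured on 2 arrays. Mouse age, sex and number, and the surface gates of the sort, were not stated, and nothing says whether the arrays of a group come from separate mice, so p-values measure only the spread between these arrays, which may be technical. No array is of cells without the reporter.

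HIN-200 proteins, also called PYHIN proteins, mostly join an N-terminal pyrin domain, which binds other pyrin domains, to 1 or more C-terminal HIN domains, which bind DNA. AIM2 is the best understood member: on double-stranded DNA in the cytosol it assembles an inflammasome through the adaptor ASC (gene Pycard) and caspase-1 (Casp1), which leads to release of IL-1beta and IL-18 and to pyroptosis through gasdermin D. The products of Ifi203, Ifi204 and Ifi205 (p203, p204 and p205) are mainly nuclear proteins; p204 has been linked to DNA sensing upstream of STING, and p205 to control of Pycard expression in macrophages. Many genes of the family are induced by interferons, and Ifi205 is commonly listed among the genes of mouse cDC1s.

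In RefSeq's gene table for assembly GRCm38.p6, 13 genes of the family stand side by side on chromosome 1, with Aim2 at one end, Ifi205 at the other and 0 other protein-coding genes between them. RefSeq promoter windows, 250 bases before to 50 after an annotated start, were found for 12 of the 13, the exception being Ifi204. They are shown because the members' windows differ in 1 short motif, GAAA, then any 2 bases, then GAAA (10 bases), searched on both strands. It is the core of the interferon-stimulated response element, to which STAT and IRF factors bind. The 250 bases before the start of Ifi205 (minus strand, chr1:174031756-174032005) and of Aim2 (plus strand, chr1:173420354-173420603) read as follows, 5′ to 3′, with matches to the core in capitals.
Ifi205: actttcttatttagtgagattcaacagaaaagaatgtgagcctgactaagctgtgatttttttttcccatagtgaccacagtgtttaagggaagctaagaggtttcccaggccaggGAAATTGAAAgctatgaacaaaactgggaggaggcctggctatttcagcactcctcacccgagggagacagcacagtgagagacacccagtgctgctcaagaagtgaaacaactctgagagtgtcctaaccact
Aim2: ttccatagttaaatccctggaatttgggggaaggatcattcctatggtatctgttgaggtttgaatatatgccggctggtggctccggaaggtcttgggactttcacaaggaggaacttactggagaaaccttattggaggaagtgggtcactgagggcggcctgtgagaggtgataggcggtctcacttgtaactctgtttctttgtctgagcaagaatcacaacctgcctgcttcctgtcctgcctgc

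The Aim2 stretch holds 0 matches, but the start used for it, base 173420604, lies inside the gene's RefSeq span (173349547 to 173466040). The 5′ end of that span was not searched. The Ifi205 stretch holds the core from base -134 to base -125. The same site stands closer to the start in most relatives, and 30 bases around it, with the core in capitals, are set against that of Ifi205 to show how far the copies match.
Ifi205: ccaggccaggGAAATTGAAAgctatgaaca
Ifi211: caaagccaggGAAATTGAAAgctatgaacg
Ifi203: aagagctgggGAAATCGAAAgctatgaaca
Mndal: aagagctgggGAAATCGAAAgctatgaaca
Ifi207: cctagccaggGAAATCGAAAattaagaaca
Ifi213: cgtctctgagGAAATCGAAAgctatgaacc

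The core begins at base -37 in Ifi211, -35 at the second of the 2 starts listed for Ifi203, -36 at the first of the 2 for Mndal, -41 in Ifi207 and -73 in Ifi213. Over these 30 bases Ifi211 differs from Ifi205 at 3 positions, Ifi207 at 6, Ifi203 and Mndal at 7 and Ifi213 at 9, and the Ifi203 and Mndal stretches are the same letters. Of the copies not printed, Ifi208 differs at 9 positions, Ifi206 at 10 and Ifi214 at 12. Of the 14 windows of the 12 genes, 10 (from 9 genes) hold a match on either strand, against 3.44% of all 32851 windows of that length. The motif was chosen after these promoters were seen, and the copies resemble each other. This share is therefore a description and not a test. Aim2, Ifi209 and Ifi202b are the genes whose windows hold no match. A second match in the Ifi205 window lies on the opposite strand, from base 24 to base 33 after the start. The other motifs searched on both strands, GGAA, any 2 bases and GAAA (ETS with IRF, 2.72% of all windows; it can share its last bases with the core) and the E-box CAGGTG that ZEB proteins can bind (20.2%), were in 0 of the 14 windows, while TGANTCA (AP-1, 7.81%) was in both Ifi203 windows, both Mndal windows and that of Ifi209. These are letters in a window, not measured binding, and whether probes of 1 family gene also pick up another was not tested.

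Ifi205 went from a signal next to the floor in Zeb2hi CDPs to a high one in the other cells. Its log2 signal was 4.69, 4.59 and 4.43 on Zeb2hi arrays 1, 2 and 3, then 9.83, 9.48 and 9.27 on the Zeb2low arrays and 10.41 and 10.53 on the pre-CD8 DC arrays. All 3 groups lie apart from each other, in the order Zeb2hi, Zeb2low, pre-CD8. Ifi205 in Zeb2hi CDPs stood only 0.10 to 0.29 above the 40th percentile of all probe sets of the same array, the level used here as a filter on low signal, and such arrays understate a difference that starts there.

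The mean log2 signal of Ifi205 was 4.57 ± 0.13 (SD, n = 3) in Zeb2hi CDPs, 9.53 ± 0.28 (SD, n = 3) in Zeb2low CDPs and 10.47 ± 0.09 (SD, n = 2) in pre-CD8 DCs. The difference between Zeb2low and Zeb2hi CDPs was 4.96 ± 0.17 (SE), a 31.1-fold higher signal and the rank of 2 among the increases of the 13356 genes fitted. Same-numbered arrays of the CDP fractions, which deviated together across genes, differed by 5.14, 4.89 and 4.84. Pre-CD8 DCs stood 5.90 ± 0.19 (SE) above Zeb2hi CDPs, 59.7-fold, with the rank of 3. Between pre-CD8 DCs and Zeb2low CDPs the Ifi205 difference was 0.94 ± 0.19 (SE), a 1.92-fold higher signal with no overlap, and this rests in part on the same Zeb2low arrays that put the gene forward. Omitting array 1 of both these groups gave 1.16.

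**Figure D1:**
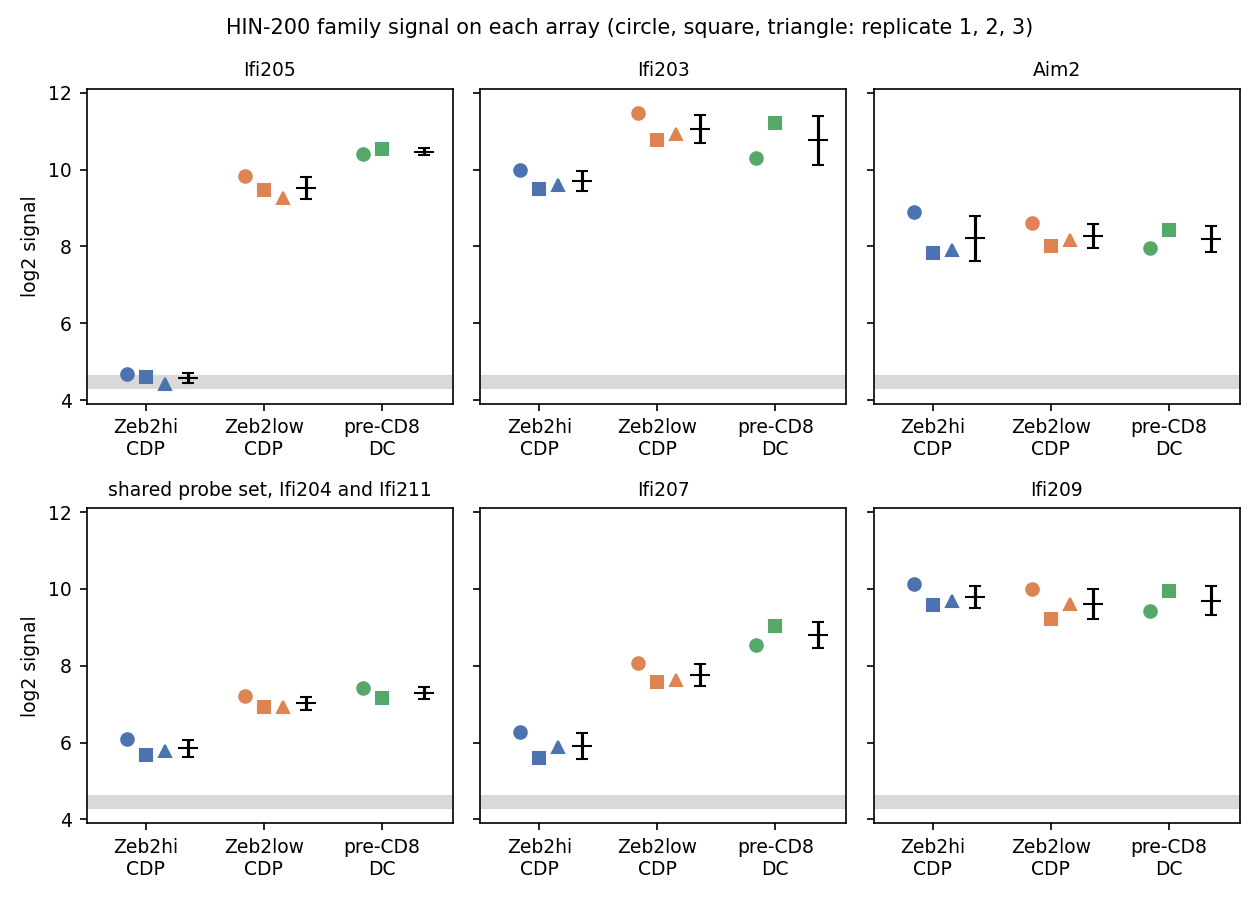
Log2 signal (y axis, the same scale in all panels) of 6 HIN-200 probe sets in the 3 populations. Each marker is 1 array, its shape the replicate number, black bars are the mean ± SD, and the grey band spans the 40th percentile of the 8 arrays (4.31 to 4.62). Ifi205 leaves the band in Zeb2low CDPs, Ifi203, Ifi207 and the shared probe set start above it and are higher in Zeb2low CDPs, and Aim2 and Ifi209 overlap in all groups.

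Ifi203, whose product p203 carries a pyrin and a HIN domain, was already well above the floor in Zeb2hi CDPs and higher still in Zeb2low CDPs. Its log2 signal was 10.00, 9.48 and 9.61 on the Zeb2hi arrays, 11.47, 10.76 and 10.92 on the Zeb2low arrays, and 10.31 and 11.21 on the pre-CD8 DC arrays. Both later groups lie above all Zeb2hi arrays and overlap each other, and array 1 is the highest of both CDP groups. Means were 9.70 ± 0.27 (SD, n = 3), 11.05 ± 0.37 (SD, n = 3) and 10.76 ± 0.64 (SD, n = 2).

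The Ifi203 difference of Zeb2low from Zeb2hi CDPs was 1.35 ± 0.28 (SE), 2.56-fold, and 1.47, 1.28 and 1.31 between same-numbered arrays. That of pre-CD8 DCs from Zeb2hi CDPs was 1.06 ± 0.31 (SE), 2.09-fold; it was 1.51 without pre-CD8 DC array 1 and 0.61 without array 2. From Zeb2low CDPs to pre-CD8 DCs the Ifi203 difference was -0.29 ± 0.31 (SE). Its 95% interval ran from -0.99 to 0.41, which does not show that the levels are alike, and the sign turned without pre-CD8 DC array 1 (0.16).

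Aim2, the cytosolic DNA sensor, had overlapping signals in all 3 populations. The log2 signal was 8.90, 7.84 and 7.90 on the Zeb2hi arrays, 8.62, 8.02 and 8.17 on the Zeb2low arrays, and 7.97 and 8.44 in pre-CD8 DCs. The groups overlap throughout, and array 1 is again the highest of both CDP groups. Means were 8.21 ± 0.60 (SD, n = 3), 8.27 ± 0.31 (SD, n = 3) and 8.20 ± 0.33 (SD, n = 2). The Aim2 difference was 0.06 ± 0.30 (SE) between Zeb2low and Zeb2hi CDPs and -0.01 ± 0.34 (SE) between pre-CD8 DCs and Zeb2hi CDPs. Same-numbered CDP arrays differed by -0.27, 0.18 and 0.27. From Zeb2low CDPs to pre-CD8 DCs the Aim2 difference was -0.07 ± 0.34 (SE; 95% interval -0.84 to 0.70). It was 0.17 without pre-CD8 DC array 1 and 0.11 without Zeb2low array 1, so its sign has no meaning here, and an effect within the interval was not detectable with these arrays.

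The probe set that names both Ifi204 and Ifi211 followed a course between those of Aim2 and Ifi205. It read 6.10, 5.67 and 5.77 in Zeb2hi CDPs, 7.20, 6.93 and 6.92 in Zeb2low CDPs, and 7.41 and 7.17 in pre-CD8 DCs, on the log2 scale. Zeb2low CDPs and pre-CD8 DCs overlap and both lie above Zeb2hi CDPs. The difference from Zeb2hi CDPs was 1.17 ± 0.17 (SE) in Zeb2low CDPs and 1.44 ± 0.19 (SE) in pre-CD8 DCs. Which of the genes gives this signal cannot be told apart.

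Of the 3 members, Ifi205 and Ifi203 were higher in Zeb2low than in Zeb2hi CDPs with no overlap of arrays, as were 20.2% of all genes fitted (21.5% were lower without overlap), and the same 2 were above Zeb2hi CDPs in pre-CD8 DCs, as were 21.4% of all genes (27.1% lower). Ifi205 was the member above Zeb2low CDPs in pre-CD8 DCs without overlap (12.4% of all genes, and 15.4% lower). In these bulk samples fewer cells that express a gene and less RNA per cell cannot be told apart.

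The other 9 family genes had 7 probe sets of their own, and 3 of these passed the filter on low signal. Ifi207, a family gene with the same promoter core, rose in Zeb2low over Zeb2hi CDPs. It read 6.26, 5.60 and 5.89 in Zeb2hi CDPs, 8.08, 7.56 and 7.63 in Zeb2low CDPs, and 8.55 and 9.03 in pre-CD8 DCs. Like Ifi205, it kept the 3 groups apart in the same order. The difference was 1.84 ± 0.23 (SE; adjusted p = 0.00284), 3.59-fold, in Zeb2low CDPs and 2.87 ± 0.25 (SE; adjusted p = 0.00034), 7.32-fold, in pre-CD8 DCs, while the step from Zeb2low CDPs to pre-CD8 DCs did not pass (1.03 ± 0.25, SE; adjusted p = 0.14).

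Ifi209, also called Pyhin1, resembled Aim2. Its log2 signal was 10.12, 9.57 and 9.68 in Zeb2hi CDPs, 9.99, 9.22 and 9.60 in Zeb2low CDPs, and 9.42 and 9.96 in pre-CD8 DCs. The groups overlap, and its differences from Zeb2hi CDPs were -0.19 ± 0.25 (SE; adjusted p = 0.615; 95% interval -0.75 to 0.37) in Zeb2low CDPs and -0.10 ± 0.28 (SE; adjusted p = 0.837) in pre-CD8 DCs, and both turned sign after quantile normalization (0.14 and 0.072). Ifi213 was close to the floor in all groups, with means of 3.65 ± 0.07 (SD, n = 3), 4.23 ± 0.35 (SD, n = 3) and 4.65 ± 0.21 (SD, n = 2). It passed the filter through both pre-CD8 DC arrays and 1 Zeb2low array, and lay 0.65 to 0.75 below the 40th percentile on the Zeb2hi arrays, so no size or test of its differences is given.

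The remaining 4, Ifi206, Ifi208, Ifi214 and Ifi202b, did not pass the filter on low signal. Ifi206 passed the 40th percentile on 1 of the 8 arrays, pre-CD8 DC array 1 (5.04). The other 3 passed it on 0 and gave no signal that could be told from the floor. Ifi202b, whose product p202 lacks a pyrin domain and counteracts AIM2, had group means between 2.26 and 2.32. Ifi206, Ifi208 and Ifi214 have the promoter core as well. The genes that hold it thus include some, Ifi208 and Ifi214, at the floor in every population.

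**Figure D2:**
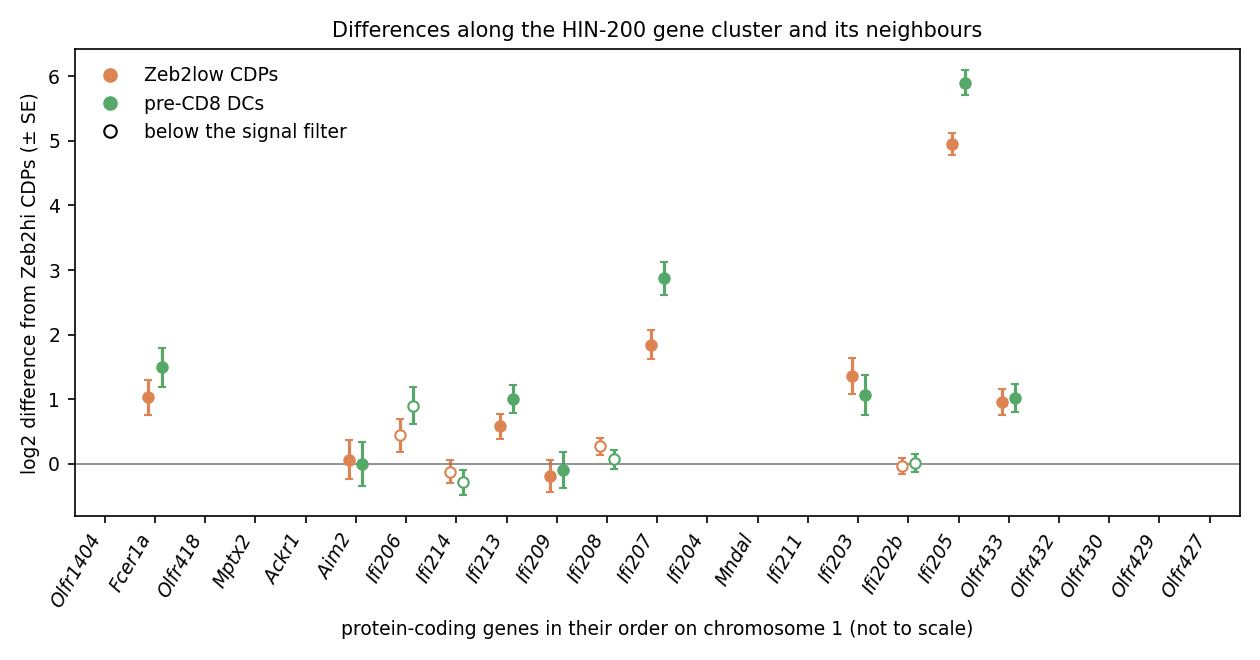
Fitted log2 difference from Zeb2hi CDPs (y axis, ± SE) of Zeb2low CDPs and pre-CD8 DCs, for the 13 HIN-200 genes and 5 protein-coding neighbours on each side, in RefSeq order on chromosome 1 (x axis, not to scale). Open symbols are family genes below the filter on low signal, and genes without a symbol had no probe set of their own or were neighbours below the filter. Ifi205 at one end stands at 4.96 and 5.90, Aim2 at the other end at 0.06 and -0.01.

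Beyond the ends of the family, 2 of the 10 nearest protein-coding neighbours passed the filter. Olfr433, an olfactory receptor gene and the next gene after Ifi205, read 4.74, 4.46 and 4.54 in Zeb2hi CDPs, 5.86, 5.40 and 5.35 in Zeb2low CDPs, and 5.85 and 5.35 in pre-CD8 DCs. Its Zeb2hi signals are next to the 40th percentile. It rose by 0.96 ± 0.20 (SE; adjusted p = 0.0168) in Zeb2low CDPs and 1.02 ± 0.22 (SE; adjusted p = 0.0157) in pre-CD8 DCs. Neither Olfr433 call held without Zeb2hi array 2 (adjusted p = 0.0764 and 0.06) or 3 (0.0702 and 0.0547), and the second also without pre-CD8 DC array 1 (0.0974). Between pre-CD8 DCs and Zeb2low CDPs the Olfr433 difference was 0.064 ± 0.22 (SE; adjusted p = 0.923), with no settled sign.

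Fcer1a, the alpha chain of the high-affinity IgE receptor, lies on the Aim2 side and was low in Zeb2hi CDPs (3.74, 3.53 and 3.21). It read 4.74, 3.93 and 4.88 in Zeb2low CDPs and 4.75 and 5.23 in pre-CD8 DCs. All Zeb2hi arrays are below the 40th percentile, so Fcer1a passed the filter only through the groups where it is higher, and no size or test of its differences is given. Fcer1a is also 1 of 6 basophil and mast cell markers, whose summed linear signal was 224 to 304 in Zeb2hi CDPs, 289 to 779 in Zeb2low CDPs and 463 to 647 in pre-CD8 DCs; their part in the Fcer1a signal was not tested.

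The genes closest to Ifi205 over the 8 arrays were sought by the root mean square difference of log2 signals, each gene centred on its own mean, among the other 13355 genes. This is a description, since the groups alone give most of the pattern. The nearest was Slamf7, a SLAM family surface receptor, at 0.45, with 4.66, 3.97 and 3.71 in Zeb2hi CDPs, 8.50, 8.08 and 8.20 in Zeb2low CDPs, and 8.96 and 9.69 in pre-CD8 DCs. Id2, the inhibitor of E proteins that cDC1s need, followed at 0.53, then the adhesion receptor Cd226 at 0.53, the interferon-inducible Samd9l at 0.59 and Plbd1, a phospholipase B-like gene, at 0.65. The differences between Zeb2low and Zeb2hi CDPs were 4.14 for Slamf7, 4.35 for Id2, 4.18 for Samd9l and 4.03 for Plbd1. Slamf7 was below the 40th percentile on Zeb2hi arrays 2 and 3. Cd226 was below it on all Zeb2hi arrays, so no size is given for its difference. Within the family Ifi207 came closest, at 1.5 and the rank of 39, followed by Ifi203 at 2.05 (rank 297), while Aim2 stood at 2.61 (rank 6460). The promoter windows of Slamf7, Id2, Samd9l and Plbd1 held 0 matches to the interferon-stimulated response element core, and no window was found for Cd226. A link between the core and these signals was not tested.

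**Figure D3:**
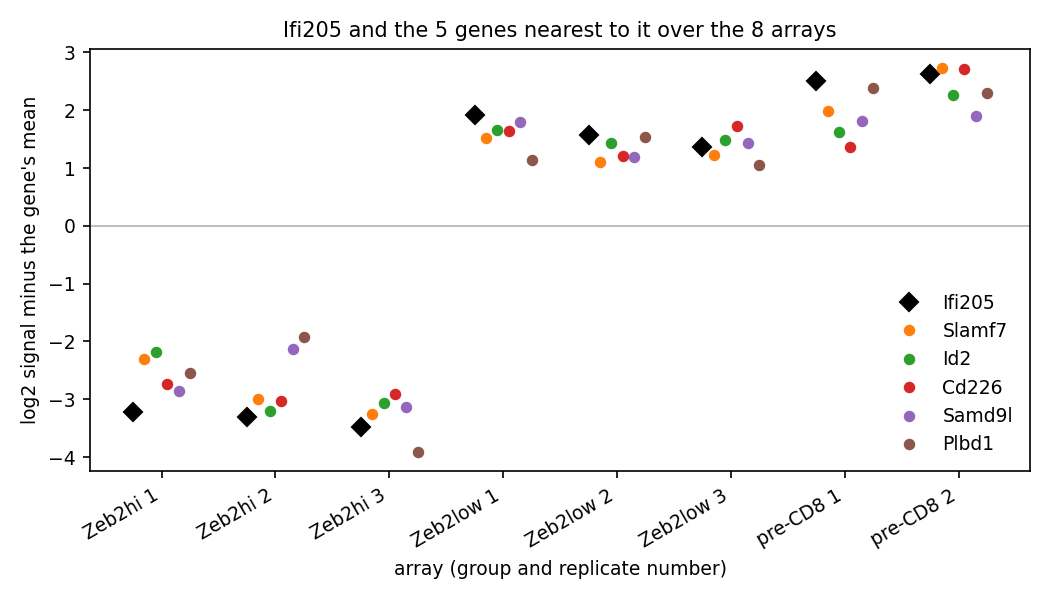
Log2 signal minus the gene's own mean over the arrays (y axis) for Ifi205 (black diamonds) and the 5 genes nearest to it (coloured circles), on each of the 8 arrays (x axis, group and replicate number). All 6 genes are below their mean on the 3 Zeb2hi arrays and above it on the 5 others.

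Markers of some other cells were higher in the groups with more Ifi205, and those of others were not. The summed linear signal of 10 cDC1 markers ran from 767 to 859 in Zeb2hi CDPs, 1590 to 1640 in Zeb2low CDPs and 4320 to 5340 in pre-CD8 DCs. Flt3, Csf1r and Kit, which define CDPs, were above the floor on all arrays, but not all at a steady level. Csf1r read 9.2, 9.6 and 9.5 in Zeb2hi CDPs, 7.9, 8.8 and 8.6 in Zeb2low CDPs, and 8.1 and 7.2 in pre-CD8 DCs. Kit went the other way, with 7.3, 8.1 and 8.1, then 8.1, 8.3 and 8.5, then 8.7 and 9.1. The summed signal of 10 mature neutrophil genes was 10800 to 20700 in Zeb2hi CDPs, 23200 to 47500 in Zeb2low CDPs and 29200 to 54400 in pre-CD8 DCs, with none of the 10 below the 40th percentile on all arrays of a group. Against 4.5% of all genes, the test called 4 of 9 cDC1 genes higher in Zeb2low than in Zeb2hi CDPs. The same held for 7 of 8 of classical DC precursors, 3 of 10 of mature neutrophils and 3 of 6 of plasmacytoid DCs. It held for 2 of 5 of basophils and mast cells and 2 of 4 of T, NK and innate lymphoid cells. Of B cell genes 1 of 5 was called higher, and of monocyte and macrophage genes 1 of 8. Of erythroid genes it was 0 of 3 and of CDP genes 0 of 6. Against 10.3% of all genes, 1 of 5 B cell, 1 of 8 monocyte and macrophage and 1 of 6 CDP genes were called lower. The other lists had 0 called lower. The CDP list includes Zeb2, by which the CDP fractions were sorted, so a lower call of Zeb2 was set by the sort. Fcer1a, Cpa3, Tlr3, Xcr1, Ccr9, Cd79a and Il2rb, which were tested, lay below the 40th percentile on all Zeb2hi arrays. They passed the filter only through groups where they are higher, so the counts are a description. The plasmacytoid DC sums were 1700 to 1880 in Zeb2hi CDPs, 1210 to 1950 in Zeb2low CDPs and 1150 to 1340 in pre-CD8 DCs. The monocyte and macrophage sums overlap in all groups, at 4940 to 6830, 4890 to 5960 and 5100 to 9740. The part of these cells in the differences of Ifi205, Ifi203, Ifi207 and the pathway genes was not tested. Zeb2 itself fell along the same order, from 9.27 ± 0.20 (SD, n = 3) to 7.68 ± 0.18 (SD, n = 3) and 6.73 ± 0.28 (SD, n = 2).

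The pathway around the family was followed in 72 genes from 5 lists, the other HIN-200 genes included. Of these 9 were higher and 6 lower in Zeb2low than in Zeb2hi CDPs, 20.8% of the 72 against 14.8% of all genes (4.5% higher, 10.3% lower). In pre-CD8 DCs against Zeb2hi CDPs 23 were higher and 4 lower, 37.5% against 17.6% of all genes (6.51% higher, 11.1% lower). Of those 27, Ifi213 and Mx2 were below the 40th percentile on all Zeb2hi arrays. From Zeb2low CDPs to pre-CD8 DCs 0 passed with limma, against 0.554% of all genes (0.337% higher, 0.217% lower), and 21 (29.2%) had an unadjusted p under 0.05, against 13.2% of all genes. The comparisons share arrays, so these counts are not independent of each other. The lists were also chosen with earlier results of these data known, so the shares are a description and not a test. The first count was 6 without Zeb2hi array 2 (3.9% of all genes) or 3 (4.3%), 9 without Zeb2low array 2 (7.89%) and 34 with replicate number as a block in the CDP arrays alone (30.5%); the second was 17 without Zeb2hi array 3 (9.41%), and the third was 4 without pre-CD8 DC array 2 (1.1%).

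Of the AIM2 partners, neither Pycard nor Casp1 passed the test with all arrays in any of the 3 comparisons, but the Pycard result between the CDP fractions depends on the fit. Pycard passed as lower in pre-CD8 DCs than in Zeb2low CDPs (-0.59 ± 0.26, SE; adjusted p = 0.382) only when pre-CD8 DC array 2 was omitted (0.0459). Pycard, the ASC gene, read 9.40, 9.49 and 9.46 in Zeb2hi CDPs, 10.19, 9.97 and 10.17 in Zeb2low CDPs, and 9.01 and 10.02 in pre-CD8 DCs. The Zeb2low arrays are above the Zeb2hi ones without overlap, but the difference did not pass in the fit of all 8 arrays (0.66 ± 0.24, SE; adjusted p = 0.0927). It passed with the replicate number as a block in the CDP arrays (adjusted p = 0.0112), in a fit of the CDP arrays alone (0.0157), without either pre-CD8 DC array (0.0157 each) and with array weights (0.0167). Casp1 had means of 7.65 in Zeb2hi CDPs, 7.60 in Zeb2low CDPs and 7.23 in pre-CD8 DCs, and its differences from Zeb2hi CDPs were -0.05 ± 0.23 (SE; adjusted p = 0.887) and -0.42 ± 0.25 (SE; adjusted p = 0.292), the first turning sign after quantile normalization (0.12).

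Of 12 inflammasome and pyroptosis genes, 3 were lower in Zeb2low CDPs and 0 higher (list median 0.08, all genes 0.03). They were Gsdmd, the pore-forming gasdermin D (-0.82 ± 0.21, SE; adjusted p = 0.0325), the sensor gene Nlrc4 (-0.77 ± 0.20, SE; adjusted p = 0.0366) and Mefv, which encodes pyrin (-0.75 ± 0.20, SE; adjusted p = 0.0354). Each of these calls was lost without Zeb2hi array 2 (adjusted p = 0.118, 0.137 and 0.0581, in that order) or 3 (0.101, 0.114 and 0.112) and without Zeb2low array 2 (0.0741, 0.108 and 0.0864). Without Zeb2hi array 1 the values were 0.0623, 0.05 and 0.0822, without Zeb2low array 3 they were 0.101 for Gsdmd and 0.0914 for Nlrc4, and without Zeb2low array 1 that of Mefv was 0.085. Quantile normalization ended the calls of Gsdmd (0.079) and Mefv (0.0638), and blocking replicate number across the 8 arrays those of Mefv (0.0602) and Nlrc4 (0.0807). In pre-CD8 DCs against Zeb2hi CDPs 2 were higher and 1 lower (list median 0.12, all genes -0.02). Nlrc4 was the lower one (-1.25 ± 0.23, SE; adjusted p = 0.00771; 0.0531 without pre-CD8 DC array 1).

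The cytokine gene Il1b and Naip5, a partner of Nlrc4, were the higher ones. Il1b read 4.97, 7.40 and 5.72 in Zeb2hi CDPs, 6.74, 9.55 and 7.79 in Zeb2low CDPs, and 10.74 and 8.77 in pre-CD8 DCs. The mature neutrophil gene Ly6g was highest on the same array of each group (5.77, 7.06 and 4.19, then 6.25, 10.15 and 8.19, then 10.80 and 6.68), and the part of neutrophils in the Il1b signal was not tested. The Il1b arrays spread by more than 1 unit within every group, and the difference of 3.73 ± 0.94 (SE; adjusted p = 0.0268) was lost without pre-CD8 DC array 1 (0.167) and without Zeb2hi array 1 (0.0695) or 3 (0.0819). Naip5 (0.93 ± 0.23, SE; adjusted p = 0.026) was lost without pre-CD8 DC array 1 (0.101) or 2 (0.0789) and without Zeb2hi array 2 (0.0914) or 3 (0.0862). With replicate number blocked across the 8 arrays neither passed (0.0682 each), though the numbers do not pair the pre-CD8 DC arrays. Naip5 also missed when only the groups compared were fitted (0.0537).

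Among 19 genes of cytosolic nucleic acid sensing, 2 were higher and 2 lower in Zeb2low CDPs (list median -0.35, all genes 0.03). Zbp1, a sensor of Z-form nucleic acids, rose from 5.28, 5.33 and 5.70 to 6.46, 6.31 and 6.54 (1.0 ± 0.16, SE; adjusted p = 0.00655). Samhd1, a deoxynucleotide hydrolase, rose by 0.95 ± 0.17 (SE; adjusted p = 0.0107), a call lost without Zeb2hi array 2 (0.0544) or 3 (0.0554). Rnaseh2a, the catalytic subunit of RNase H2, fell by 1.16 ± 0.20 (SE; adjusted p = 0.00904). The DNA sensor gene Cgas and its adaptor Sting1 did not pass, at -0.24 ± 0.22 (SE; adjusted p = 0.471) and -0.48 ± 0.22 (SE; adjusted p = 0.161; Sting1 passed as lower with the replicate block in the CDP arrays, 0.0421). In pre-CD8 DCs 4 were higher and 2 lower than in Zeb2hi CDPs (list median -0.20, all genes -0.02), among them Zbp1 (1.64 ± 0.18, SE; adjusted p = 0.000932), Samhd1 (1.48 ± 0.19, SE; adjusted p = 0.00217), the endosomal DNA receptor gene Tlr9 (1.18 ± 0.18, SE; adjusted p = 0.00349) and, lower, Rnaseh2a (-1.42 ± 0.22, SE; adjusted p = 0.00439).

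Of 14 interferon receptor and signalling genes 1 was higher in Zeb2low CDPs, the kinase gene Jak2 (1.22 ± 0.19, SE; adjusted p = 0.00579), and 0 lower (list median 0.09, all genes 0.03). In pre-CD8 DCs 6 were higher than in Zeb2hi CDPs and 0 lower (list median 0.74, all genes -0.02), with Jak2 (1.42 ± 0.21, SE; adjusted p = 0.00317), Tyk2 (1.39 ± 0.23, SE; adjusted p = 0.0051) and the interferon regulatory factor gene Irf2 (1.06 ± 0.19, SE; adjusted p = 0.00789) having the largest differences. The type I interferon receptor genes Ifnar1 and Ifnar2 did not pass in Zeb2low CDPs, at -0.34 ± 0.15 (SE; adjusted p = 0.16) and -0.51 ± 0.20 (SE; adjusted p = 0.112).

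The interferon-induced effector genes that passed the test were mostly higher than in Zeb2hi CDPs. Of 24, the test called 5 higher and 1 lower in Zeb2low CDPs (list median 0.57, all genes 0.03), and 9 were higher and 1 lower in pre-CD8 DCs against Zeb2hi CDPs (list median 1.02, all genes -0.02). Samd9l, one of the genes nearest to Ifi205, read 4.63, 5.36 and 4.36 in Zeb2hi CDPs, 9.28, 8.68 and 8.91 in Zeb2low CDPs, and 9.31 and 9.39 in pre-CD8 DCs. Gbp3, a guanylate-binding protein gene, went the other way, from 7.64, 7.60 and 7.54 to 5.47, 5.72 and 6.12 and then 5.73 and 4.93 (-1.82 ± 0.23, SE; adjusted p = 0.00312, and -2.26 ± 0.26, SE; adjusted p = 0.0012). Irf7, the regulator of interferon genes, was higher in pre-CD8 DCs (2.46 ± 0.28, SE; adjusted p = 0.00107). Its increase in Zeb2low CDPs (1.17 ± 0.25, SE; adjusted p = 0.0176) was lost without Zeb2hi array 2 (0.0693) or 3 (0.0607) and without Zeb2low array 2 (0.0563) or 3 (0.0604).

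**Figure D4:**
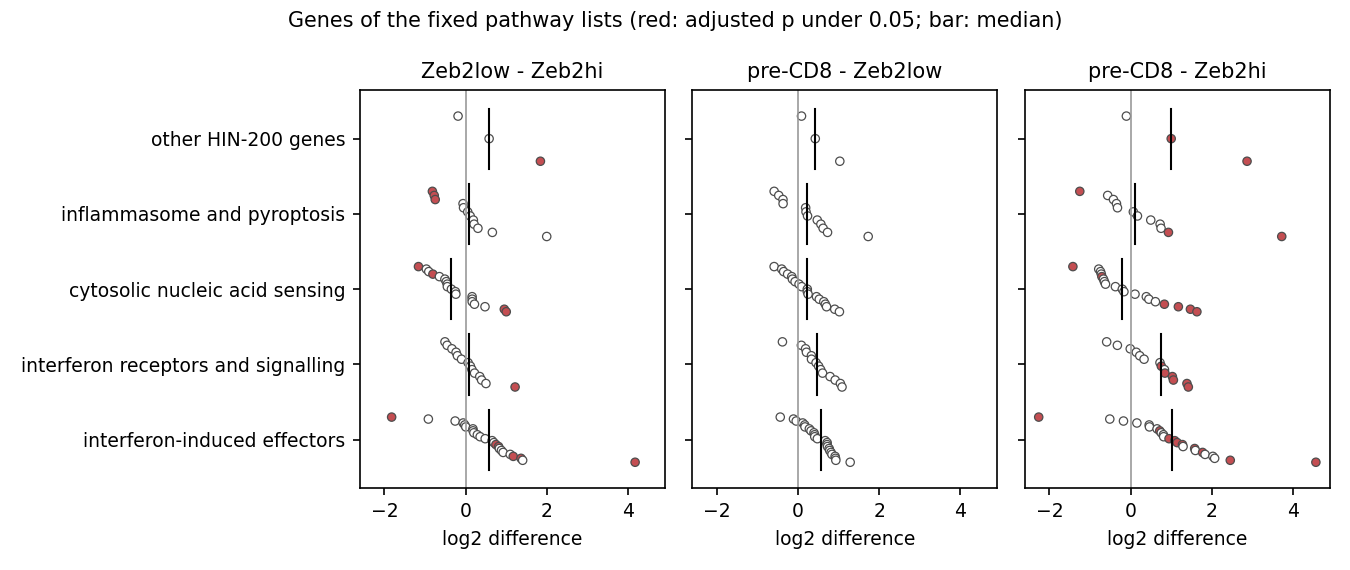
Log2 differences (x axis) of the genes of 5 lists (rows) in the 3 comparisons (panels); each circle is 1 gene, red where limma's adjusted p is under 0.05, and bars are list medians. The middle panel has no red circle, and in the right panel 23 genes are called higher and 4 lower.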

How the data were processed

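Per the labels' protocols, RNA of the sorted cells was amplified with NuGen's Ovation PicoSL WTA kit for Affymetrix arrays. The deposited values are linear intensity values of 28853 probe sets on 8 arrays, which per the submitters' processing notes come from RMA and Expression Console (versions not given in the sources used here). RMA gives no detection call, and the number of arrays limits the precision.

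Here intensities were log2 transformed. Of the probe sets, 21789 name 1 gene, 1621 several and 5443 none that was used. Probe sets above the array's 40th percentile on at least 2 arrays were kept, 1 per gene (highest mean), leaving 13356 genes. All 8 arrays were fitted with limma 3.58.1 in R 4.3.3 (lmFit, eBayes, two-sided, 5 residual degrees of freedom), with Benjamini-Hochberg adjustment per comparison at 0.05; the fit was tested on simulated data. Median log2 signals lay between 4.91 and 5.14, and correlations between arrays of a group between 0.937 and 0.989. The members and lists were chosen with earlier results of these data known. Named genes are the members, the other family genes, 5 neighbours on either side, up to 3 genes per list and direction, or the 2 with the smallest p where none passed (not all are printed), and the 5 genes nearest to Ifi205; Slamf7, Pycard, Casp1, Cgas, Sting1, Ifnar1 and Ifnar2 are shown in detail for their place or role. No p is reported for the members, whose signals over the 3 groups chose them. The motifs were chosen after the promoters were seen.

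Same-numbered Zeb2low and Zeb2hi arrays had correlated deviations from the mean of their group (r = 0.478, 0.407 and 0.308 over genes), so the numbers appear to pair these arrays. For pre-CD8 DC arrays 1 and 2, r was -0.172 and -0.312 with Zeb2hi arrays and -0.401 and -0.587 with Zeb2low arrays. The numbers thus do not pair the pre-CD8 DC arrays with the others, which limits the block over all 8 arrays. The labels do not say what a number stands for.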

Additional observations from a re-analysis of the deposited data

How the results depend on the processing

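Alternatives were other filters, normalizations, array weights, limma's trend, the mean of probe sets, fits of the compared groups alone, the replicate number as a block and the omission of arrays. The test of Ifi204 was not run, since its probe set names Ifi211 too. Ifi205 and Ifi203 stayed above Zeb2hi CDPs in every alternative. From Zeb2low CDPs to pre-CD8 DCs the Aim2 difference was 0.022 with arrays centred on their medians, 0.042 with array weights and 0.34 without Zeb2low array 1 and pre-CD8 DC array 1 together, where Ifi203 was 0.37, Ifi205 1.16, and Ifi203 against Zeb2hi CDPs 1.51. Leaving out 1 array gave Aim2 -0.30 to 0.17, Ifi203 -0.74 to 0.16, and Ifi203 against Zeb2hi CDPs 0.61 to 1.51. Pathway genes called between the CDP fractions numbered 6 to 17 without 1 array, 29 with array weights and 34 with the replicate block over the CDP arrays, and between pre-CD8 DCs and Zeb2hi CDPs 17 to 33 without 1 array. Between pre-CD8 DCs and Zeb2low CDPs they numbered 0 to 4 without 1 array, and 1 after quantile normalization or median centring. The Olfr433 difference between pre-CD8 DCs and Zeb2low CDPs ran from -0.19 to 0.32 without 1 array and was -0.028 without array 1 of both groups. Between the CDP fractions Ifi209 was 0.14 and Casp1 0.12 after quantile normalization, and -0.38 to 0.0071 and -0.31 to 0.089 without 1 array. Ifi209 in pre-CD8 DCs against Zeb2hi CDPs was 0.072 after quantile normalization, 0.011 with array weights, 0.17 without array 1 of Zeb2low CDPs and pre-CD8 DCs, and -0.37 to 0.17 without 1 array. The cause was not tested. The block over the CDP arrays, which the numbers appear to pair, added the calls of Pycard and Sting1 between the CDP fractions. It also added that of Ifi213, which is below the 40th percentile on all Zeb2hi arrays, and changed no other call of a named gene there. The block over all arrays gave 14 pathway genes between the CDP fractions (11.6% of all genes), 0 from Zeb2low CDPs to pre-CD8 DCs (0.112%) and 24 from Zeb2hi CDPs to pre-CD8 DCs (11.9%). Signals near or below the 40th percentile limit what can be said of Ifi205, Slamf7 and Cd226 in Zeb2hi CDPs. The same holds for Ifi213, Fcer1a, Mx2 and the 4 family genes at or near the floor.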
